A study of Drosophila melanogaster with 8 samples.

Results

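The cytoplasmic ribosomal protein genes of Drosophila melanogaster were followed in RNA of the larval heart, aorta and whole dorsal vessel. Members were taken by name: every gene whose symbol in the array files began with RpL, RpS or RpP, with sta and sop added. This gave 76 of 13303 genes on the array, 42 of the large and 34 of the small ribosomal subunit. They were measured by 98 of 14456 gene oligonucleotides, 51 for the large and 47 for the small subunit, and 18 genes had more than 1 oligonucleotide. Another 15 ribosomal protein genes stood under other or older names in the files, RpS5a among them. They were not counted as members and enter only as partners in paralogue pairs and as a separate count.

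The dorsal vessel is the tubular circulatory organ of the larva, divided into a contractile posterior heart and an anterior aorta. All RNA came from larvae in the third instar of a wild type strain labelled WT (yw; Canton S) that developed at 25 °C, with no transgene or treatment in any group. On 4 two-colour arrays, pools of 10 hearts were set against pools of 10 aortae cut apart at the cardiovascular valve, and on 4 further arrays dorsal vessels were set against whole larvae, in pools of 5. The arrays of a comparison are labelled as biological replicates 1 to 4, about 100 ng of RNA per pool was amplified over 2 rounds, and dyes were swapped so that the heart was in Cy5 on replicates 1 and 2 and the dorsal vessel in Cy5 on replicates 3 and 4.

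Each cytoplasmic ribosome joins a large subunit, which forms the peptide bonds, to a small subunit, which reads the mRNA. Their proteins are made in matched amounts, so the genes are usually transcribed together, and their demand follows cell growth. In the fly, loss of 1 copy of many of them gives the Minute phenotype of slow development and thin bristles. A few genes exist as duplicated copies, and in flies RpS5b, RpS10a, RpS19b and RpL22-like are known for activity in the germ line.

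Values are given as log2 ratios of heart over aorta or of dorsal vessel over whole larva, and a member was tested where it lay above the detection level on at least 2 arrays in 1 of the RNAs. That level was set by negative and empty spots and lay between 1.41 and 3.37 relative fluorescence units (RFU). The median gene spot read 1.22 to 2.48 RFU. Members differed widely in signal, and 68 of the 98 oligonucleotides were detected in both RNAs on every array with a value. Bulk RNA was hybridised, so fewer cells of a type and less RNA per cell cannot be told apart in any ratio below.

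Before the results, 3 features of the arrays need stating. In heart over aorta, replicates 1 and 3, which carried opposite dye orientations, correlated negatively over all 6199 tested oligonucleotides (r = -0.48), while r was 0.48 between replicates 1 and 2 and 0.48 between replicates 3 and 4. Over the 87 tested members every pair of opposite orientation was negative, with r of -0.58 to -0.17. The direction of each ratio rests on the labelled dyes. All array pairs of dorsal vessel over whole larva correlated at 0.81 to 0.89 over 6965 oligonucleotides. One printed block of 656 spots was out of register on heart over aorta replicate 3 and on dorsal vessel over whole larva replicates 1 and 2, with r of -0.03 to 0.17 against the other arrays, where other blocks reached at least 0.81. It holds 6 member oligonucleotides and was left out on those arrays, so that 85 members were tested in dorsal vessel over whole larva, against 89 with the block kept. The labelled tissue was checked by markers. Of 14 tested oligonucleotides for cardiac transcription factors, 5 were higher and 1 lower in the dorsal vessel than in the whole larva. Of 23 for sarcomere genes, 2 were higher and 13 lower, with a median of -0.55. The shares over all tested oligonucleotides were 13.7% higher and 24.1% lower. Of the tested oligonucleotides for markers of other tissues, 15 of 18 for midgut, 9 of 10 for salivary glands, 6 of 7 for fat body and 8 of 10 for testis and germ line were lower in the dorsal vessel.

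The first comparison asks how the transcripts of the dissected vessel differ from those of the whole animal. The fitted ratio of dorsal vessel over whole larva was above 0 for 79 of 85 ribosomal protein oligonucleotides tested, against 46% of all tested oligonucleotides. Of these 85, 31 were higher and 3 lower at an adjusted p below 0.05, and 51 did not pass (limma, Benjamini-Hochberg over all 6965 tested oligonucleotides). Over the whole array 13.7% of tested oligonucleotides were higher and 24.1% lower, against 36.5% and 3.53% of the members. The median member ratio was 0.46, a 1.38-fold difference, where the median over all tested oligonucleotides was -0.05. All 4 arrays were positive for 50 of the 85 members, or 58.8%, against 26.4% of all tested oligonucleotides.

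Large and small subunit members had nearly equal medians. Of 47 large subunit oligonucleotides tested, 16 were higher and 1 lower, with a median of 0.46. Of 38 small subunit oligonucleotides, 15 were higher and 2 lower, also with a median of 0.46. By gene, 15 of 42 large subunit genes and 12 of 33 tested small subunit genes had at least 1 oligonucleotide higher. That count favours genes with several oligonucleotides. With only the brightest oligonucleotide of each gene tested, 27 of 74 member genes were higher, against 13.9% of all 6731 genes. The large subunit medians on replicates 1 to 4 were 0.35, 0.26, 0.32 and 1.00, and the small subunit medians were 0.26, 0.24, 0.24 and 1.03. Replicate 4 stood above the other arrays for both subunits, and it held the highest value of 66 of the 85 members.

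Without replicate 4, 7 member oligonucleotides were higher and 2 lower, and the median was 0.27. Over all tested oligonucleotides 5.86% were then higher, close to the 7 of 85, and 14.5% lower. Without replicate 1 or without replicate 2, 11 were higher, where the share over all was 6.95% and 5.17%. Under median centring of each array in place of loess, the member medians were 0.82, 0.52, 1.46 and 1.02. The medians of all tested oligonucleotides were then -0.04, -0.06, 0.18 and -0.36. Members thus lay 0.86, 0.58, 1.28 and 1.37 above these, with replicate 4 highest and replicate 3 close to it. With that centring 64 members were higher, against 10.2% of all. In the authors' deposited log2 ratios the member medians were 0.37, 0.19, 0.39 and 0.42. They lay 0.46, 0.37, 0.49 and 0.66 above the medians of all tested oligonucleotides.

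**Figure D1:**
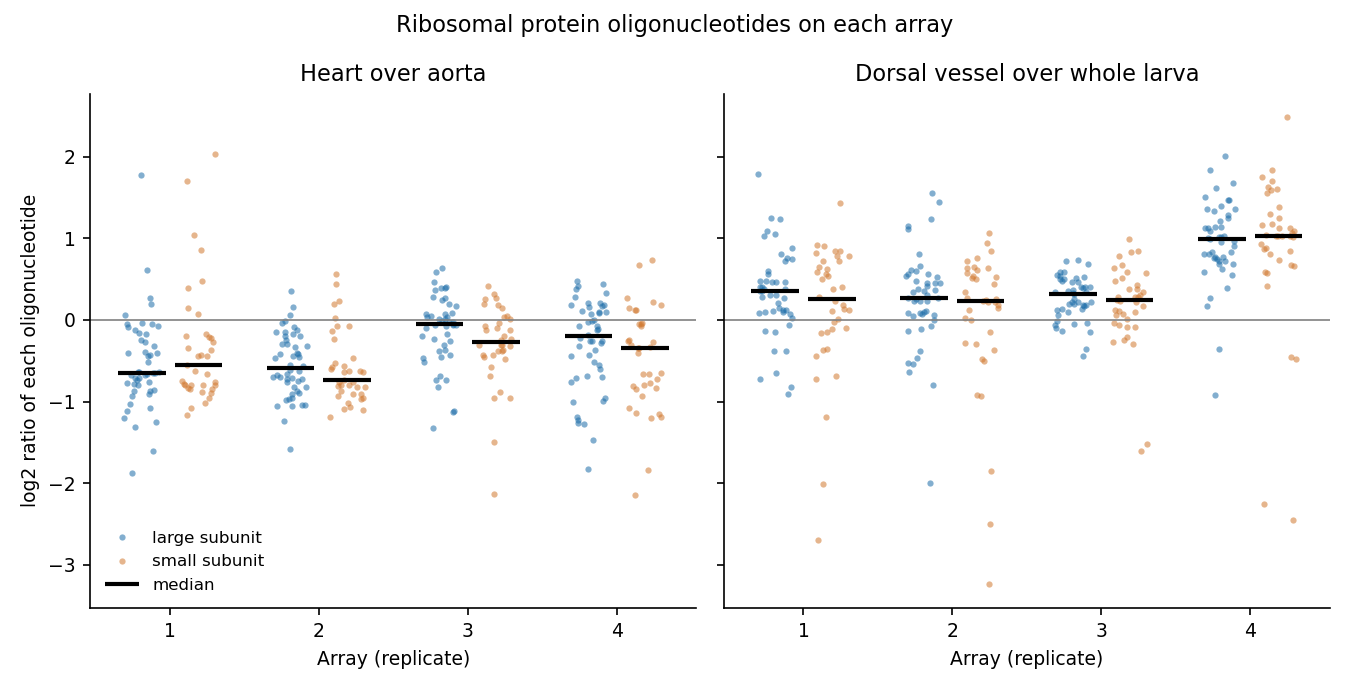
Log2 ratio of every tested ribosomal protein oligonucleotide (points) on each of the 4 arrays of heart over aorta (left) and of dorsal vessel over whole larva (right), with large subunit members in blue, small subunit members in orange and black bars at the medians. In heart over aorta all 8 medians lie below 0, and in dorsal vessel over whole larva all 8 lie above 0, with both medians of replicate 4 near 1.

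Among large subunit proteins, RpL6 showed the largest ratio. It read 1.78, 1.56, 0.72 and 1.36 on replicates 1 to 4, from mean signals of 51.3 RFU in the vessel and 16.7 RFU in the larva. All 4 arrays were well above 0, with replicate 3 lowest, and the mean of 1.36 ± 0.15 (SE, n = 4) was a 2.56-fold difference (limma adjusted p = 0.00204). Every SE given here and in the figures is the moderated SE of the limma fit with its dye term. It leaves out the dye effect and is not the SE of the listed values. RpL22, which in flies also associates with chromatin through the linker histone, read 1.25, 1.24, 0.73 and 1.48. Its arrays did not spread far, and its mean of 1.17 ± 0.16 (SE) passed the test (limma adjusted p = 0.00406). RpL18 read 1.09, 1.12, 0.53 and 0.78 and was 1.84-fold higher in the vessel (limma adjusted p = 0.00393).

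The 5 large subunit oligonucleotides with the next smallest adjusted p, leaving the stalk aside, were RpL14, RpL34a, RpL3, RpL27 and RpL26. Their means ran from 0.60 for RpL34a to 0.79 for RpL27, with limma adjusted p between 0.0197 and 0.028, and each was positive on all 4 arrays. RpL3, which lies near the peptidyl transferase centre, read 0.75, 0.26, 0.59 and 1.00 on the oligonucleotide that passed.

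In the small subunit the highest values belonged to sta (stubarista), which encodes the RpSA protein, a ribosomal relative of the laminin receptor. Its first oligonucleotide read 0.57, 1.06, 0.84 and 1.63 and its second read 0.65, 0.94, 0.83 and 1.75. Both designs ordered the 4 arrays alike, with replicate 4 highest, and both stood about 2-fold higher in the vessel, at 2.03-fold and 2.06-fold (limma adjusted p = 0.01 and 0.0102). RpS29 read 0.82, 0.65, 0.64 and 1.38, and its mean of 0.87 ± 0.16 (SE) was also past the test (limma adjusted p = 0.0115).

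RpS14b read 0.78, 0.72, 0.59 and 1.13, a tight set with a mean of 0.80 ± 0.14 (SE) (limma adjusted p = 0.00957). Both oligonucleotides of RpS19a were also higher, at 0.66 and 0.52. RpS6, the target of S6 kinase in growth signalling, read 0.85, 0.57, 0.08 and 1.03, and its mean of 0.63 passed (limma adjusted p = 0.0463).

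**Figure D2:**
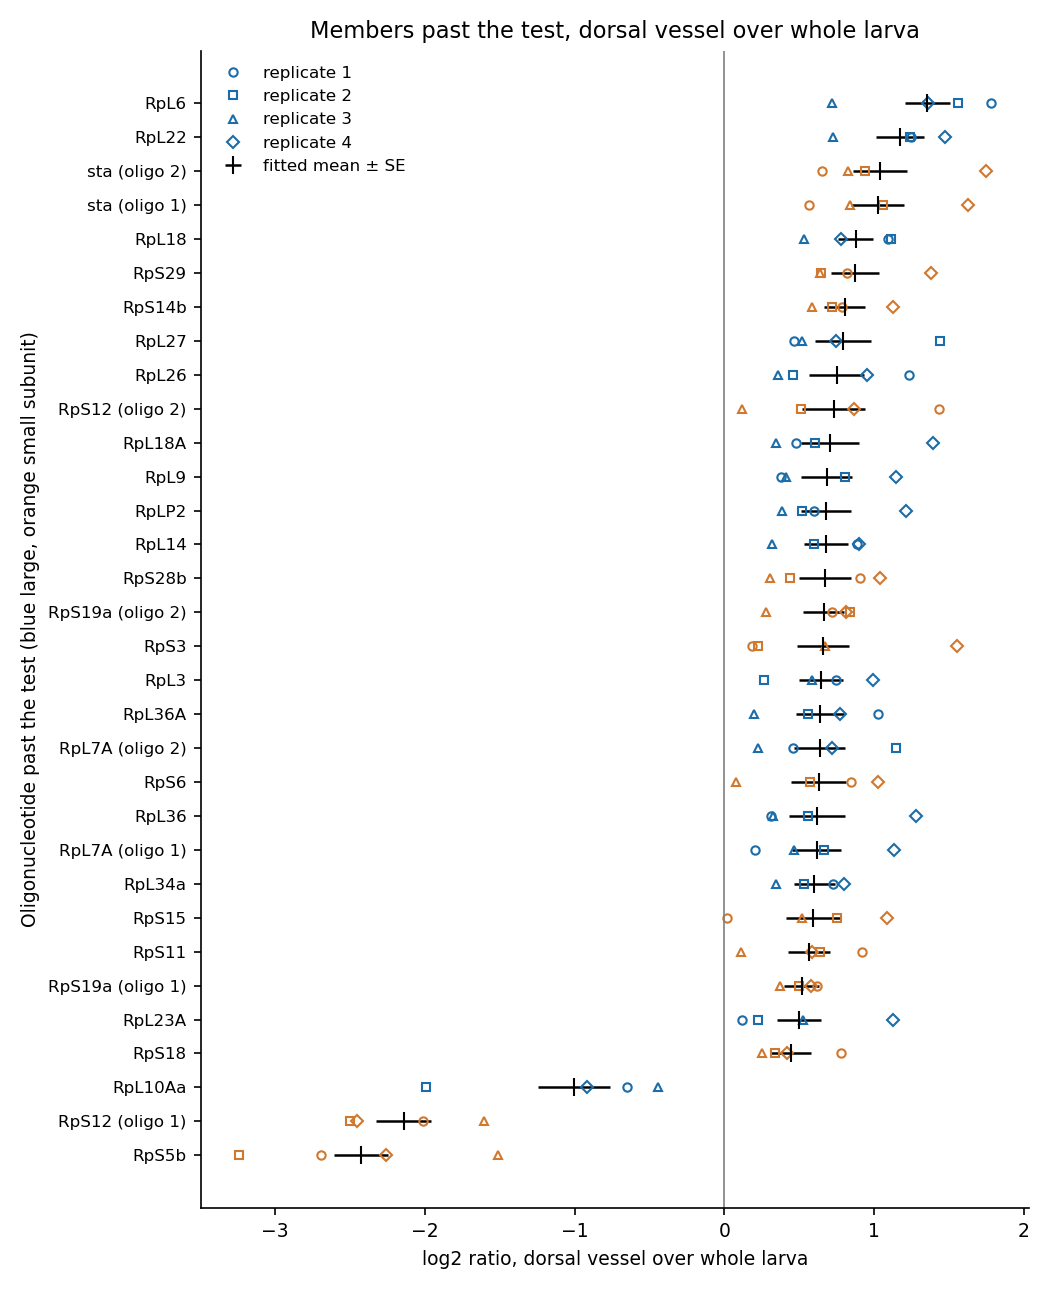
Log2 ratios of 32 of the 34 member oligonucleotides past the test in dorsal vessel over whole larva (limma adjusted p below 0.05), with the 4 arrays as open symbols and the fitted mean with its standard error in black; blue is the large and orange the small subunit. RpL6 leads at 1.36, and RpL10Aa, 1 of the RpS12 oligonucleotides and RpS5b lie below 0 on every array.

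Calls differed in how far they held. Across the other settings tried, 7 of the 34 calls passed in each setting in which they were tested. These were RpL6, RpL22, RpS14b and both oligonucleotides of sta among the higher ones, and RpS5b and an oligonucleotide of RpS12 among the lower ones.

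The stalk of the large subunit recruits elongation factors and is built on RpLP0 with the acidic proteins RpLP1 and RpLP2. RpLP2 read 0.60, 0.52, 0.39 and 1.22 and was higher in the vessel, at 0.68 ± 0.17 (SE, limma adjusted p = 0.028). RpLP1 read -0.38, -0.39, 0.13 and 1.01, and RpLP0 read -0.73, -0.80, 0.50 and 1.62. Both changed sign between the dye orientations and neither passed (limma adjusted p = 0.683 and 0.585).

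RpL40 and RpS27A are made as fusions to ubiquitin, from which they are cleaved. RpL40 read 1.06, 0.10, 0.50 and 0.72, with a mean of 0.60 just outside the test (limma adjusted p = 0.0528). RpS27A averaged 0.48 and did not pass (limma adjusted p = 0.0982). For sop (string of pearls, the RpS2 protein) the values were -0.03, 0.53, 0.23 and 1.60, an uneven set with a mean of 0.59 (limma adjusted p = 0.116).

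The 3 oligonucleotides lower in the dorsal vessel were RpS5b, a second RpS12 design and RpL10Aa. RpS5b, the copy known for the germ line, read -2.70, -3.24, -1.51 and -2.26, from 4.02 RFU in the vessel and 31.5 RFU in the larva. It lay far below 0 on every array, and its mean of -2.43 ± 0.18 (SE) was a 5.38-fold difference (limma adjusted p = 0.000495). The RpS12 design read -2.01, -2.50, -1.60 and -2.45, and it was detected in the vessel on 1 of 4 arrays. Its mean of -2.14 also passed (limma adjusted p = 0.000872).

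RpL10Aa, a copy of the L1 stalk protein gene RpL10Ab, read -0.65, -1.99, -0.44 and -0.92 and was at or below the detection level in the vessel on all 4 arrays. In the fitted mean it was 2-fold lower there (limma adjusted p = 0.0265), which is an estimate and not a lower bound. RpL10Aa was more than 2-fold lower on replicate 2 only. Its log2 ratio was -0.67 without replicate 2 and -0.88 without replicate 4. Across the other settings in which RpL10Aa was tested it ran from -1.63, in the deposited ratios, to -0.096, with an offset of 50 RFU. It passed in 10 of these 16. Mean signals over the 4 arrays were 1.61 RFU in the vessel and 5.98 RFU in the larva. It did not pass without replicate 2, 3 or 4 (limma adjusted p = 0.0722, 0.0725 and 0.139), and without replicate 1 RpS10a was also lower. RpS10a, also a copy gene, read -0.37, -1.85, -0.29 and -0.48. Replicate 2 was far below the rest, and the mean of -0.75 did not pass (limma adjusted p = 0.0648).

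Markers of testis and germ line were mostly lower in the vessel too, as were those of midgut, salivary glands and fat body. The summed signal of the 18 testis and germ line oligonucleotides was 33.3 to 115 RFU in dorsal vessel samples and 135 to 772 RFU in whole larvae. At or below the detection level on all arrays were 8 of them in the vessel, vas, bam, aly, twe and fzo among these, and 7 in the larva. Of 10 tested, 8 were lower in the vessel, and the array medians were -2.38, -3.98, -1.68 and -1.82. Their part in the lower values of RpS5b, RpL10Aa and the RpS12 design was not tested.

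The second comparison set the heart against the aorta. Here no member passed: of 87 oligonucleotides tested, 0 were higher and 0 lower at an adjusted p below 0.05 (limma, Benjamini-Hochberg over 6199 tested oligonucleotides). Few others did, with 0.0968% of all tested oligonucleotides higher and 0.0323% lower. At an unadjusted p below 0.05, 50 of the 87 members were lower and 0 higher in the heart, where 13% of all tested oligonucleotides were lower and 11.7% higher. The fitted ratio was below 0 for 82 of the 87 members, against 50.1% of all tested oligonucleotides, and the median was -0.43, a 1.34-fold difference.

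The other settings tried called 0 to 26 members lower and 0 higher. The 26 came when only oligonucleotides detected on all 4 arrays in both RNAs were tested, 70 members among them, and there 5.22% of all 3739 were lower and 5.38% higher. A shared fit of all 8 arrays called 2, RpL6 and RpS19a, where 0.758% of all tested oligonucleotides were lower. A literal offset of 50 RFU called RpS29, where 0.0968% of all were lower. Under median centring the member median was -0.06 and 55 of 87 members were below 0; the median of all tested oligonucleotides then stood at 0.15, so members lay 0.22 below it (a difference of -0.22). With that centring 4 members were lower at an unadjusted p below 0.05, where the share over all tested oligonucleotides was 3.16%.

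The medians on replicates 1 to 4 were -0.64, -0.63, -0.10 and -0.27, so both arrays with the heart in Cy5 were lower than both arrays with the heart in Cy3. Under median centring they were -0.15, 0.23, -0.60 and 0.08, so replicates 2 and 4 turned positive and that order did not hold; the medians of all tested oligonucleotides were then 0.31, 0.36, -0.18 and 0.10. In the authors' deposited log2 ratios, turned to heart over aorta, they were -0.39, -0.36, -0.14 and -0.12. All arrays were below 0 for 36 of the 87 members, or 41.4%, against 12.4% of all tested oligonucleotides. The large subunit median was -0.39 over 50 oligonucleotides and the small subunit median -0.49 over 37. At an unadjusted p below 0.05, 26 large and 24 small subunit oligonucleotides were lower.

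**Figure D3:**
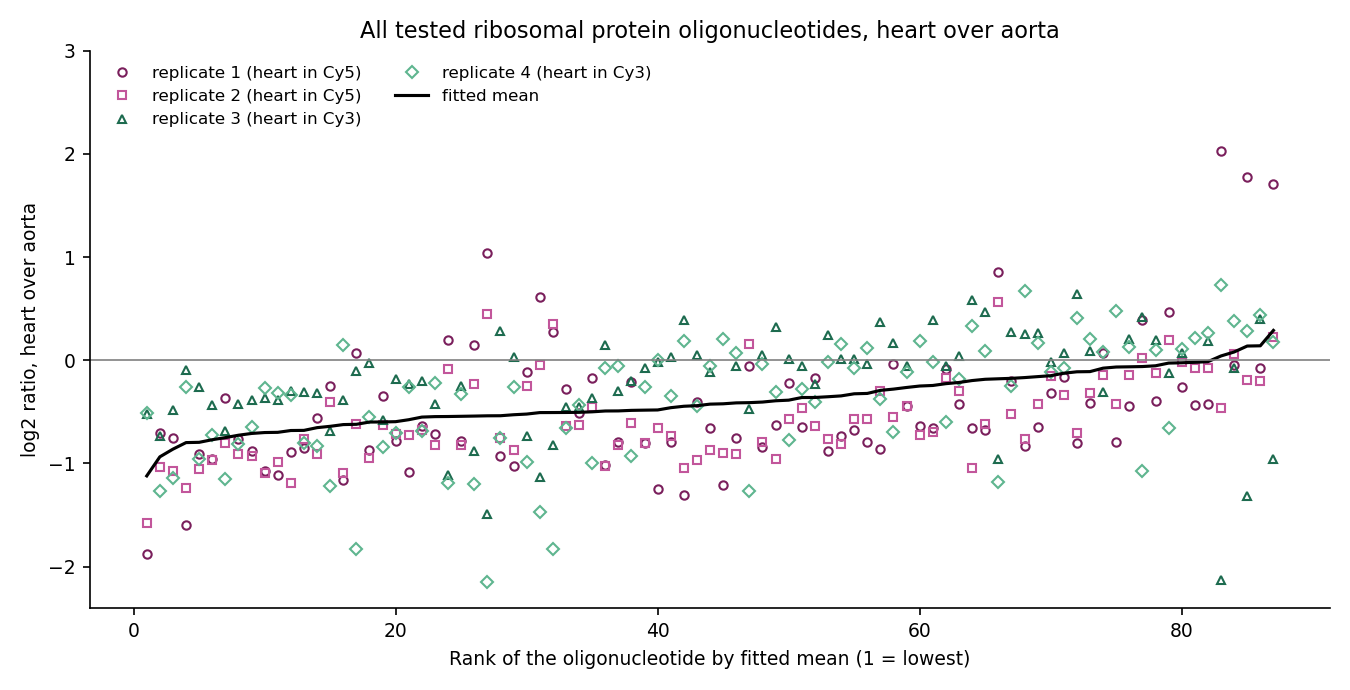
All 87 tested member oligonucleotides in heart over aorta, ordered by fitted mean (black line), with the value on each array as symbols; purple arrays carried the heart in Cy5 and green arrays in Cy3. The line runs from -1.12 to 0.29 and lies below 0 for 82 of 87 members, and the arrays of a dye orientation tend to lie together.

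RpL6 was again at the end of the range. It read -1.88, -1.58, -0.52 and -0.51, below 0 on every array, with an SD of 0.71 over both dye orientations. Its mean of -1.12 ± 0.09 (SE of the fit with a dye term, n = 4) missed the threshold (limma adjusted p = 0.0621). RpL41, which encodes a very small basic protein, read -0.71, -1.04, -0.74 and -1.26, from 611 RFU in the heart and 869 RFU in the aorta. Its arrays lay close together, with a mean of -0.94 ± 0.13 (SE, limma adjusted p = 0.0771). RpL22 read -1.60, -1.24, -0.09 and -0.26, nearly all of it from the arrays with the heart in Cy5.

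Among small subunit members sop was lowest, at -0.75, -1.07, -0.48 and -1.15 on the 4 arrays, with a mean of -0.86 ± 0.15 (SE, limma adjusted p = 0.0841). The 2 oligonucleotides of sta averaged -0.77 and -0.73 and were negative on all arrays. RpS7 read -0.37, -0.80, -0.68 and -1.15 (limma adjusted p = 0.0845). RpS27A, the ubiquitin fusion, averaged -0.65 and RpL40 averaged -0.28.

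In the stalk, RpLP2 read -1.11, -0.98, -0.39 and -0.31 and RpLP1 read -0.12, -0.25, -0.73 and -0.99. These run in opposite order across the dye orientations, although their means of -0.70 and -0.52 are close. RpLP0 read 0.27, 0.35, -0.82 and -1.83 (limma adjusted p = 0.223).

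At the upper end stood the RpS12 design that was lower in the dorsal vessel, with 1.71, 0.23, -0.96 and 0.18. RpL29 read -0.08, -0.20, 0.40 and 0.44, and RpL10Aa, a dim RpL3 design and RpS5b were also among the top values. RpS5b read 2.03, -0.46, -2.13 and 0.73, the widest spread of any of these, and RpL10Aa read 1.77, -0.19, -1.32 and 0.29. The array medians of the testis and germ line markers were 3.34, -0.52, -2.72 and 0.08, highest on replicate 1 and lowest on replicate 3, as for RpS5b, RpL10Aa and this RpS12 design, with a summed signal of 61.5 to 1183 RFU in heart and 44.4 to 691 RFU in aorta samples. Midgut markers had array medians of 3.47, 0.76, -4.22 and -1.34, and salivary gland markers 2.70, 1.86, -2.87 and 0.05, also highest on replicate 1 and lowest on replicate 3. The summed signal of the 20 midgut oligonucleotides was 63.1 to 2741 RFU in heart and 83.7 to 2612 RFU in aorta samples, and that of the 13 for salivary glands was 166 to 2967 and 107 to 1699 RFU. None of the tested oligonucleotides of these 3 lists passed the test between heart and aorta (limma adjusted p), and at an unadjusted p below 0.05 there were 3 lower for midgut and 1 higher for salivary glands. The part of these tissues in the spread of the members was not tested.

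Markers of blood cells also differed between heart and aorta. Of 13 tested oligonucleotides for hemocytes and lymph gland, 2 were higher in the heart and 0 lower, with a median of 0.91, and their summed signal was 693 to 1438 RFU in heart samples and 177 to 294 RFU in aorta samples. The detection level was not reached on any heart array by lz and both oligonucleotides of Antp. The part of these cells in the member ratios was not tested.

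Some members carried strong dye effects in both sets of arrays. The dye term of the fit, as log2 Cy5 over Cy3, was 1.28 and 1.40 for RpS13 in the first and second set, 0.89 and 1.03 for RpS16, 0.82 and 0.91 for RpLP0 and 0.79 and 0.86 for RpL35. RpS13, a small subunit protein, thus read 1.04, 0.44, -1.49 and -2.15 in heart over aorta and -1.18, -0.92, 1.00 and 2.49 in dorsal vessel over whole larva. Neither mean passed the test. Across the 83 members tested in both sets the dye effects correlated at r = 0.86, against 0.22 over all 5477 oligonucleotides tested in both; the points share oligonucleotides and dyes.

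Where a gene had several oligonucleotides, their values were set side by side. In heart over aorta 13 member genes had more than 1 tested oligonucleotide, and in 11 of them the highest and lowest differed by less than 0.5. Signs differed in RpL3, whose designs averaged 0.08, -0.35 and -0.42, and in RpS12, at -0.39 and 0.29. In dorsal vessel over whole larva 10 genes could be compared, and in 8 the difference was below 0.5. The quartiles of all tested members were -0.55 and -0.18 in heart over aorta, and 0.23 and 0.65 in dorsal vessel over whole larva. Members at large thus lay about as close, and the limit of 0.5 does not set designs of the same gene apart. Only RpS12 gave opposite signs among these 10, with 0.73 on 1 design and -2.14 on the other. Both passed the test and both were annotated to match 3 of 6 transcripts. The first read 180 RFU in the vessel and 89.4 RFU in the larva, and the second, far dimmer, 1.89 and 15.3 RFU. Further RpS12 designs did not reach the detection level on any array with a value.

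Designs for RpS19a, RpL9 and RpS25 were printed 16 times on each array and show the error between spots. Spots of an array share the amplification, labelling and dye orientation, so other technical error is not in it. The SD between those spots was 0.03 to 0.20 on the log2 scale. Between arrays, the SD was 0.43 for RpS19a in heart over aorta and 0.36 for RpL9 in dorsal vessel over whole larva. The SD between arrays pools both dye orientations and so holds dye effects too. RpS19a read -0.89 and -1.19 with the heart in Cy5, and -0.30 and -0.34 with the heart in Cy3. For RpL9 in heart over aorta the SD between arrays, 0.17, was below the 0.20 between spots on its most variable array; in the other 5 cases the SD between arrays, 0.26 to 0.43, was above that between spots on every array.

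Duplicated genes were compared as the difference of log2 ratios between the copies within an array, over 12 pairs and both comparisons. The exact two-sided sign-flip permutation test has 16 sign patterns over 4 arrays, 2 of which are always as extreme as the data, so none of the 24 differences could pass a threshold of 0.05, and the values themselves are given. The copies share sequence, and cross-hybridisation between them was not tested. In dorsal vessel over whole larva, 5 of 11 pairs with 4 arrays kept the same sign on each.

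RpS5a minus RpS5b had the widest difference, at 3.94, 4.49, 1.97 and 2.74. RpS5a itself was higher in the dorsal vessel, at 0.86, and RpS5b lower, so the copies moved in opposite directions. RpL10Ab minus RpL10Aa read 1.03, 2.41, 0.31 and 2.01, and RpS10b minus RpS10a read 1.09, 1.97, 0.51 and 1.36. RpS19a minus RpS19b read 0.51, 0.78, 0.44 and 1.03, with RpS19b above the detection level on 2 larva arrays and no vessel array.

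The closely matching copies RpS14a and RpS14b encode the same small subunit protein. Their difference was -0.41, -0.50, -0.31 and -0.39, the smallest SD among the pairs with 4 arrays in this comparison, with RpS14b higher in every case. The mean difference of -0.40 turned to 0.20 under median centring and was -0.91 in the authors' deposited log2 ratios. RpL37a minus RpL37b averaged 0.50, and RpL34b minus RpL34a averaged -0.26. For RpL7, RpL24 and RpLP0 against their -like copies the mean differences were -0.01, 0.20 and -0.25, each within the SD over arrays. That SD pools both dye orientations, and the RpL7 difference read -0.87, -0.76, 0.67 and 0.93. RpL24-like was detected on 3 vessel arrays and no larva array, and RpLP0-like on 2 and 1. Whether these copies behave alike cannot be told from such values. RpL22-like and RpS15Ab did not reach the detection level on any array, so for the RpL22 pair the difference reflects RpL22. RpS15Aa was itself dim, detected on 2 vessel arrays and no larva array, so the RpS15A difference lies between signals near the detection level.

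In heart over aorta the pairs were less steady. RpS5a minus RpS5b read -3.66, -0.86, 1.82 and -0.35, crossing 0, and RpL10Ab minus RpL10Aa read -2.65, -0.76, 1.30 and -0.84. Of the pairs with 4 arrays, RpS19a minus RpS19b and RpL37a minus RpL37b kept 1 sign on each array, with means of -0.47 and -0.43 that shrank to -0.04 and -0.05 under median centring; RpS19b was detected on 1 heart array and no aorta array, and RpL37b on 1 and 2.

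**Figure D4:**
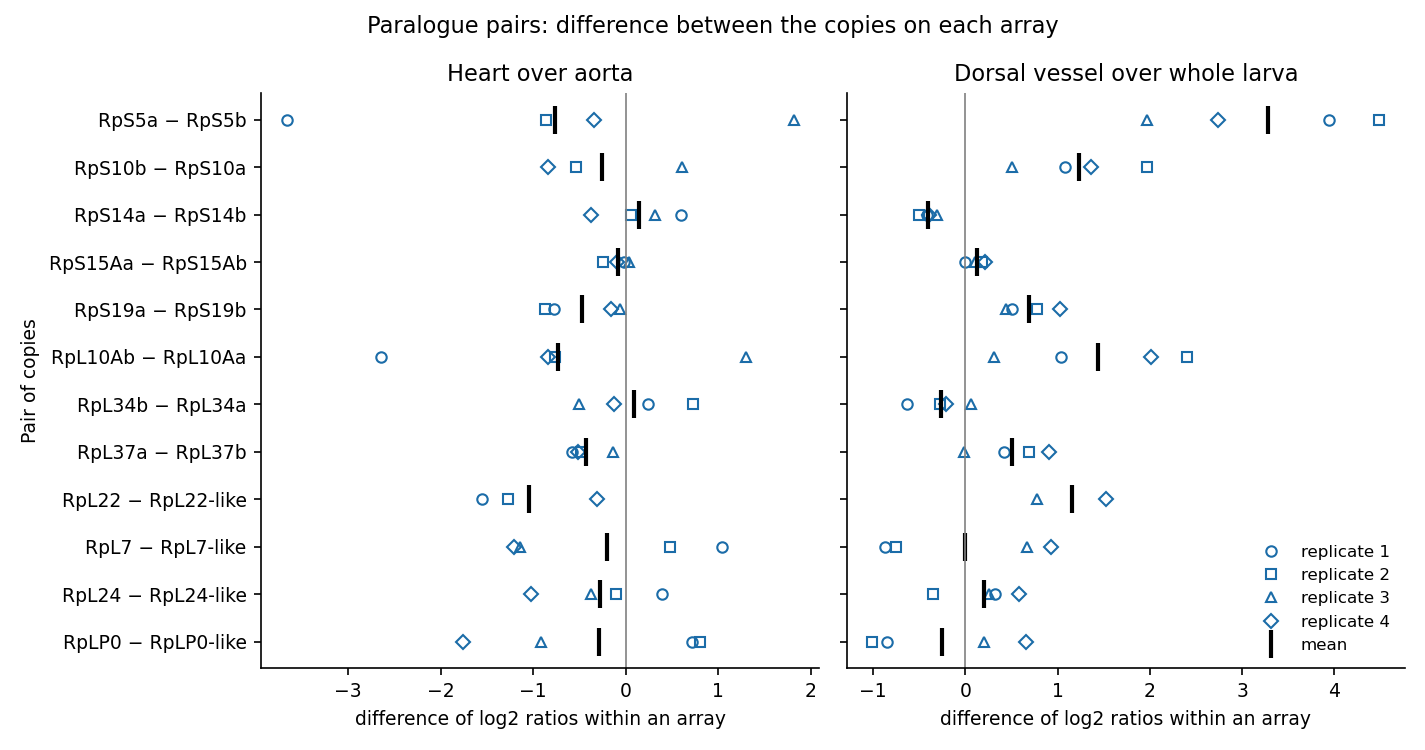
Difference of log2 ratios between the copies of 12 duplicated genes, within each array (open symbols) and on average (black bar), for heart over aorta (left) and dorsal vessel over whole larva (right). RpS5a minus RpS5b spans -3.66 to 1.82 on the left and 1.97 to 4.49 on the right.

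Set side by side, the ratios had opposite signs for most members. Of the 83 members tested in both, 77 had a ratio below 0 in heart over aorta and above 0 in dorsal vessel over whole larva, or 92.8%, against 31.1% of all 5477 oligonucleotides tested in both. Across those 83 members the 2 ratios correlated at r = -0.56 (Spearman's rho = -0.42), and without RpS5b, RpL10Aa and the lower RpS12 design r was -0.48 over 80. Over all 5477 oligonucleotides r was -0.12. These are descriptions across oligonucleotides, which share the arrays of a comparison and are not replicates.

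**Figure D5:**
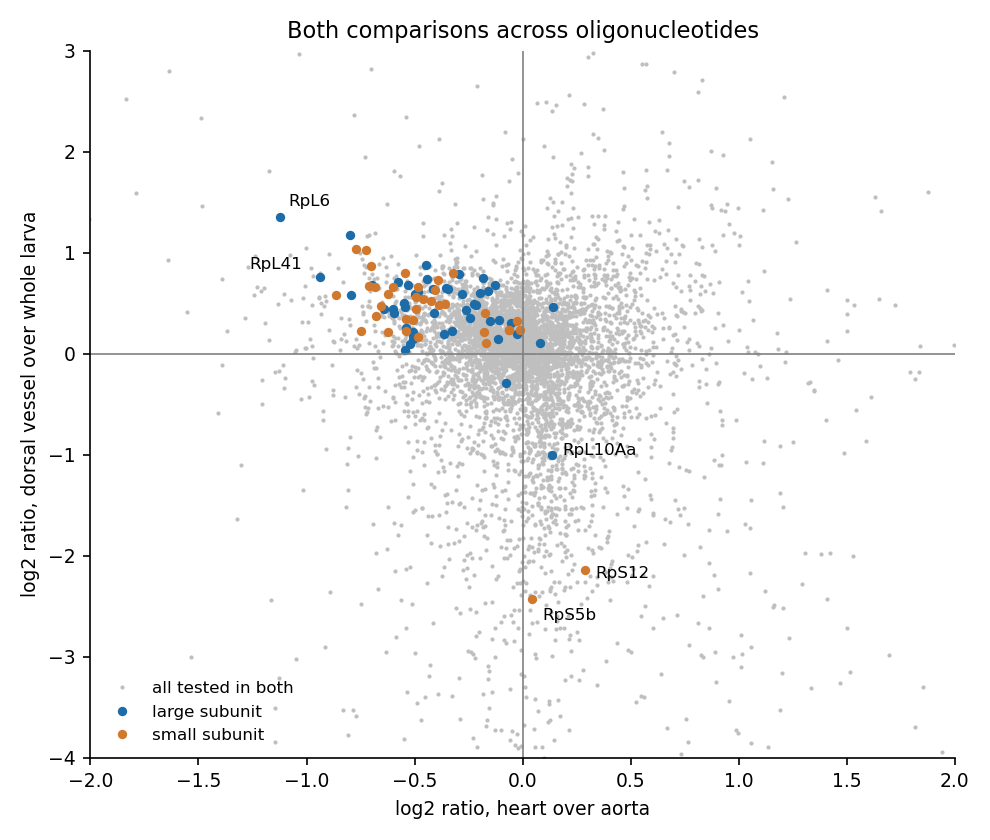
Fitted log2 ratio in heart over aorta (x axis) against dorsal vessel over whole larva (y axis) for all oligonucleotides tested in both (grey, 113 lie outside the plotted range) and for large (blue) and small (orange) subunit members. Most members lie at the upper left, with RpL6 at the edge of the cloud, while RpS5b, RpL10Aa and an RpS12 oligonucleotide lie below.

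Not every member could be tested. For heart over aorta 11 oligonucleotides were too dim, which left RpS10a, RpS15Ab and RpS19b without a test. In dorsal vessel over whole larva 13 were not tested, 10 for low signal on the arrays kept and 3 because the block left them values in a single dye orientation, and RpS15Ab was the gene without a test. In the latter comparison 6 tested members were above the detection level in 1 of the RNAs only; beside RpL10Aa these were RpL32, RpL36, RpL37b, RpL8 and RpS19b designs, whose fitted ratios of 1.13-fold to 1.39-fold did not pass the test.

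Related gene groups were counted in the same way, from lists written with earlier results of these data known. The 15 tested oligonucleotides for ribosomal proteins under other names had 4 higher and 0 lower in the dorsal vessel, with a median of 0.39, and 0 called in heart over aorta, with a median of -0.31. Mitochondrial ribosomal proteins, which serve the separate ribosomes of that organelle, had 32 of 56 higher and 0 lower in the vessel, with a median of 0.54. Between heart and aorta 54 of 61 were below 0, with a median of -0.33 and 0 called.

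For ribosome biogenesis factors, 4 of 16 were higher and 0 lower in the vessel, with a median of 0.34. For heart over aorta 14 of 15 were below 0, with a median of -0.64, 0 called and 11 lower at an unadjusted p below 0.05. For growth control of ribosome synthesis, which held Myc, Tor and insulin pathway genes, 0 of 12 were higher and 1 lower in the vessel, with a median of -0.07, and the median was -0.03 over 13 in heart over aorta. Cell cycle genes had 0 of 9 higher and 4 lower in the vessel, and all 9 were below 0 in heart over aorta with a median of -0.72.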

How the data were processed

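Spot intensities (foreground and local background of both dyes, in RFU) are the deposited values of the scanner software, per the file headers. The authors' deposited table holds a log2 ratio per oligonucleotide, of aorta to heart and of vessel to larva (r with the scanner ratios between 0.926 and 0.99 in size); limma is the tool listed per the submitters' processing notes, and its version there is not given in the sources used. They were used as an alternative, with the first comparison turned.

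Intensities were scaled by 36.9 to 16 bits, corrected by normexp (offset 50) and normalised by loess (span 0.3, 4 iterations) in limma 3.58.1 under R 4.3.3, with control and marked spots (6 to 112 per array) at weight 0. Each comparison was fitted over its 4 arrays with an effect and a dye term (2 residual degrees of freedom, prior 2.04 and 3.50), and p-values adjusted by Benjamini-Hochberg over all tested oligonucleotides. Each ratio is taken within an array, so the array is the block. The detection level was the 95th percentile over the negative controls and empty positions. The block out of register was found in the files; leaving it out, planned as an alternative, became the reported setting. Steps were tested on simulated data. Oligonucleotides were not realigned, and 12639 of 14456 were named by locus tag and 1139 by an older identifier.

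Members, lists and named genes were chosen with earlier results of these data known. Named were, for each comparison and subunit, at most the 8 of smallest adjusted p past the test in each direction, the 3 highest and 3 lowest ratios, all paralogue pairs, the stalk, sta, sop, the ubiquitin fusions, and genes whose oligonucleotides differ in sign; RpS6, RpS13, RpS16, RpL35 and designs detected in 1 RNA or printed 16 times were chosen after their values were seen. A few members that this rule names are counted but not reported by name here. The number of arrays, 4 for each comparison, limits the precision.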

Additional observations from a re-analysis of the deposited data

Results flagged for a closer look

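Single arrays far from the other arrays of their comparison were looked for in 80 groups of 4 values, and 4 were found; chance marks about 1 in 20 groups. On replicate 4 of dorsal vessel over whole larva the median log2 ratio of all members was 1.021, where the other arrays lay between 0.259 and 0.310. The large subunit median was 0.9964 there, against 0.264 to 0.352, and the small subunit median was 1.033, against 0.237 to 0.259. These 3 values describe the same array, and the cause was not tested. RpS10a read -1.846 on replicate 2 of dorsal vessel over whole larva, while its other arrays lay between -0.478 and -0.290.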

How the results depend on the processing

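In heart over aorta the count of members lower at an adjusted p below 0.05 was 0, where 0.0323% of all tested oligonucleotides were lower. It was 2 in a shared fit of all 8 arrays (0.758% of all) and 1 with an offset of 50 RFU (0.0968%). Among oligonucleotides detected on all arrays in both RNAs it was 26 (5.22%). At an unadjusted p below 0.05 the count of lower members was 50 (13% of all). It was 32 without a dye term (6.98%), 4 under median centring (3.16%) and 31 in the authors' deposited log2 ratios (13.1%). When each replicate was left out it was 37 to 51, with shares over all of 7.35% to 10.7%. The member, large and small subunit medians were -0.0643, -0.0582 and -0.0834 under median centring, and the small subunit median was -0.26 in the deposited ratios. Leaving out each replicate gave -0.49 to -0.36, -0.45 to -0.30 and -0.55 to -0.43, with 0 called. Median centring called 15 oligonucleotides of the whole array higher and 1 lower in the heart, against 6 and 2.

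In dorsal vessel over whole larva 31 members were higher, where 13.7% of all tested oligonucleotides were. The count was 64 under median centring (10.2% of all) and 15 with no detection filter (5.32%). Leaving out each replicate gave 7 to 43, with shares over all of 5.17% to 12.7%. Lower members numbered 3, where 24.1% of all tested oligonucleotides were lower. The count was 1 among oligonucleotides detected on all arrays in both RNAs (17.6% of all) and 5 in the deposited ratios (30.6%). Leaving out each replicate gave 2 to 4 lower members, with shares over all of 13.8% to 20.3%. Under median centring the member, large and small subunit medians were 1.05, 1.01 and 1.06, and leaving out each replicate gave 0.27 to 0.66, 0.27 to 0.66 and 0.26 to 0.68.

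Without the replicate block, taking the channels of an array as separate samples, 8 members were lower in the heart, against 1.11% of all tested oligonucleotides, and 14 higher in the vessel, against 9.39%. No median over the 4 arrays changed sign in these alternatives, but in heart over aorta the member medians of replicates 2 and 4 turned positive under median centring, at 0.23 and 0.08. The causes were not tested. Many members were bright. With spots above 0.5 of the highest signal of their channel left out, 71 members were tested in heart over aorta. Their median was -0.38, with 0 called. In dorsal vessel over whole larva 69 were tested, with a median of 0.49, and 26 were higher, against 13.6% of all. Oligonucleotides near the detection level carry compressed ratios, and 4 arrays for each comparison limit what can be told apart.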
